A study of Mus musculus with 4 samples.

Results

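The 7 genes described here encode receptors that start, sustain or restrain T cell responses: Ctla4, Cd28, Icos, Pdcd1 and Btla, and the coinhibitory receptors Lag3 and Tigit. They were chosen by name, as the CD28 family together with coinhibitory receptors, and all 7 were among the 33696 genes of both expression matrices. Their RNA was read in CD4+CCR7+ thymocytes (CCR7 is a chemokine receptor gained as thymocytes mature) from Cd4Cre Cgasfl/fl mice (Cgas KO) and Cd4Cre mice (WT). Cd4Cre, carried by both groups, drives recombination in T lineage cells that have switched on Cd4, so Cgas, which encodes the cytosolic DNA sensor cGAS, is removed in T lineage cells only in the Cgas KO mice. The sources used here give neither the age of the mice nor how many went into a library.

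There was 1 droplet expression library for each genotype, so differences between genotypes could not be tested against replicates. Every interval below is a 95% interval and covers counting error alone. All are exact except those for ratios of shares. Kept barcodes had at least 2000 unique molecular identifiers (UMIs), at least 500 genes and at most 10% mitochondrial UMIs. They numbered 14381 in Cgas KO, with a median of 4507 UMIs, and 12929 in WT, with a median of 4943 UMIs. Levels are CPM, the UMIs of a gene per 1000000 UMIs of the same barcodes. Cgas itself stood at 2.92 CPM in Cgas KO and 4.49 CPM in WT; the sources used here do not name the floxed exons, so these UMIs do not check the deletion. RNA of the sorted proteins was present, with Cd4 in 65.6% of Cgas KO and 66.7% of WT barcodes and Ccr7 in 81.6% and 79.5% of them. By CPM Ccr7 stood at 721 in Cgas KO and 617 in WT, and it was higher in Cgas KO in each of the states described below. The heat-shock genes Hspa1a (530 CPM in Cgas KO and 779 CPM in WT) and Hspa1b (655 and 1014 CPM) were lower in Cgas KO. They were lower in each of these states too, and the reason was not tested. The libraries shared 276 kept barcode sequences, and 9.58% of Cgas KO and 9.00% of WT barcodes held at least 2 productive TCR beta chains, a sign of more than 1 cell.

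Barcodes were placed in 5 exclusive states, none of which used a member. Foxp3+ barcodes, with at least 1 UMI of the transcription factor that defines regulatory T cells (Treg cells), numbered 378 in Cgas KO and 514 in WT. Cd8 lineage barcodes, with at least 2 UMIs of Cd8a and Cd8b1 together and none of Cd4 or Foxp3, numbered 1445 and 1454. Ikzf2-high Foxp3- barcodes, with at least 4 UMIs of the gene for Helios, numbered 1004 and 870. Nr4a1/Egr-high barcodes, at or above the 90th percentile of the summed RNA of the immediate early genes Nr4a1, Egr1, Egr2 and Egr3 that follow TCR engagement, numbered 1109 and 945. Cd4 only barcodes, with Cd4 UMIs and none of Cd8a or Cd8b1, numbered 5518 and 4824 and served as the comparison for the other states. The Foxp3+ label rests on few UMIs: 247 of the 378 Cgas KO and 294 of the 514 WT barcodes had exactly 1 Foxp3 UMI. The summed level of 9 Treg markers, Foxp3 and Ikzf2 among them, was 2917 CPM in Cgas KO and 2571 CPM in WT Foxp3+ barcodes, against 557 and 628 CPM in Cd4 only barcodes. Foxp3 made up 306 and 288 CPM and Ikzf2 911 and 719 CPM of the Foxp3+ sums. By the rules for states, Cd4 only barcodes held no Foxp3 UMI and fewer than 4 Ikzf2 UMIs, so these sums are no independent check of the label. Barcodes with at least 2 beta chains made up 14.3% and 12.3% of the Foxp3+ barcodes, against 8.90% and 8.19% of the Cd4 only barcodes.

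CD28 on T cells binds CD80 and CD86 on antigen-presenting cells and adds to the TCR signal, and in the thymus this costimulation favours Treg development. CTLA-4 binds the same ligands more tightly and removes them from the other cell, and its loss leads to lethal lymphoproliferation in mice. ICOS costimulates through ICOSL, while PD-1 (Pdcd1), BTLA, LAG-3 and TIGIT pass inhibitory signals after binding PD-L1 or PD-L2, HVEM, MHC class II or FGL1, and CD155.

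Promoters of 4 of the 7 members, Ctla4, Pdcd1, Btla and Tigit, were matched by symbol in a RefSeq table of build GRCm38.p6; 3 of these genes shared a high level in Foxp3+ barcodes (below), and Btla did not. The 250 bases before the annotated start are printed 5′ to 3′ on the gene's own strand, with capitals marking the NFAT core GGAAA on either strand (TTTCC where it lies on the other). They span chr1:60908775-60909024 on the plus strand for Ctla4, chr1:94052554-94052803 on the minus strand for Pdcd1, chr16:45224087-45224336 on the plus strand for Btla and chr16:43664185-43664434 on the minus strand for Tigit.
Ctla4: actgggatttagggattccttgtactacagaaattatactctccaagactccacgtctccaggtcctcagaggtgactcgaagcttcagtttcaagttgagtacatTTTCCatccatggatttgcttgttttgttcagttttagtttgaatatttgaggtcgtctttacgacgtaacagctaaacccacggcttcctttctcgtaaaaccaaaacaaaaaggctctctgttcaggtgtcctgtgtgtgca
Pdcd1: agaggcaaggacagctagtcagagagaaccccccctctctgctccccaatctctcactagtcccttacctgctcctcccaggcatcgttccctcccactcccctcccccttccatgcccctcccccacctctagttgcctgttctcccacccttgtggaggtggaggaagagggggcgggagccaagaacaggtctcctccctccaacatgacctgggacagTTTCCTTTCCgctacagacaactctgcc
Btla: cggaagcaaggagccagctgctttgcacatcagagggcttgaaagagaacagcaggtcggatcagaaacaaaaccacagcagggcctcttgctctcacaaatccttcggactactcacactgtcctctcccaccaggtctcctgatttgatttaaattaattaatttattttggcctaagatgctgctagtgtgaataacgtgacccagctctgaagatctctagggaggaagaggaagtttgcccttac
Tigit: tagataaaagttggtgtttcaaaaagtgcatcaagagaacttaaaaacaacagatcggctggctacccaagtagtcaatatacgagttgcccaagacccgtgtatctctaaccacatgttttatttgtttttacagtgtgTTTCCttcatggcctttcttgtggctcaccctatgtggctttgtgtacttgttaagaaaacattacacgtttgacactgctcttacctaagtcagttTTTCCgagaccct
The NFAT core occurred once in the Ctla4 window, 144 bases upstream of the start, in 2 places each in the Pdcd1 and Tigit windows, and not in the Btla window. Of 32851 promoter windows of this length in the table, 55.6% held it, so its presence in 3 of 4 is a description only. The AP-1 motif TGANTCA (6.75% of windows), the NR4A motif AAAGGTCA (1.34%), the CRE TGACGTCA (1.55%), the forkhead motif TGTTTAC (3.17%) and the TATA motif TATAAA (12.4%), each searched on both strands, were not among the letters of any of the 4 windows.

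The states separated the members into 2 patterns, with the same direction in both libraries. Ctla4, Pdcd1 and Tigit were highest or near highest in Foxp3+ or Ikzf2-high Foxp3- barcodes, and Cd28, Icos and Btla were highest in Nr4a1/Egr-high barcodes and lower in Foxp3+ than in Cd4 only barcodes. The patterns were not exclusive, since Pdcd1 and Ctla4 were also higher in Nr4a1/Egr-high than in Cd4 only barcodes. Pdcd1 was at 1.61 times in Cgas KO (1.30 to 1.98) and 1.65 times in WT (1.35 to 1.9995). Ctla4 was at 1.24 times in Cgas KO (1.08 to 1.41) and 1.21 times in WT (1.04 to 1.39). Among the 6 members with at least 100 UMIs in the Foxp3+ and Cd4 only barcodes together, 3 (Ctla4, Pdcd1 and Tigit) were past 2-fold higher in Foxp3+ barcodes in both libraries, against 2.44% of all 11633 genes with as many UMIs; none was past 2-fold lower, against 0.825%. The median log2 ratio of the 6 members was 0.94, beside -0.06 for all genes. It falls in the gap between the 2 patterns and describes neither.

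**Figure D1:**
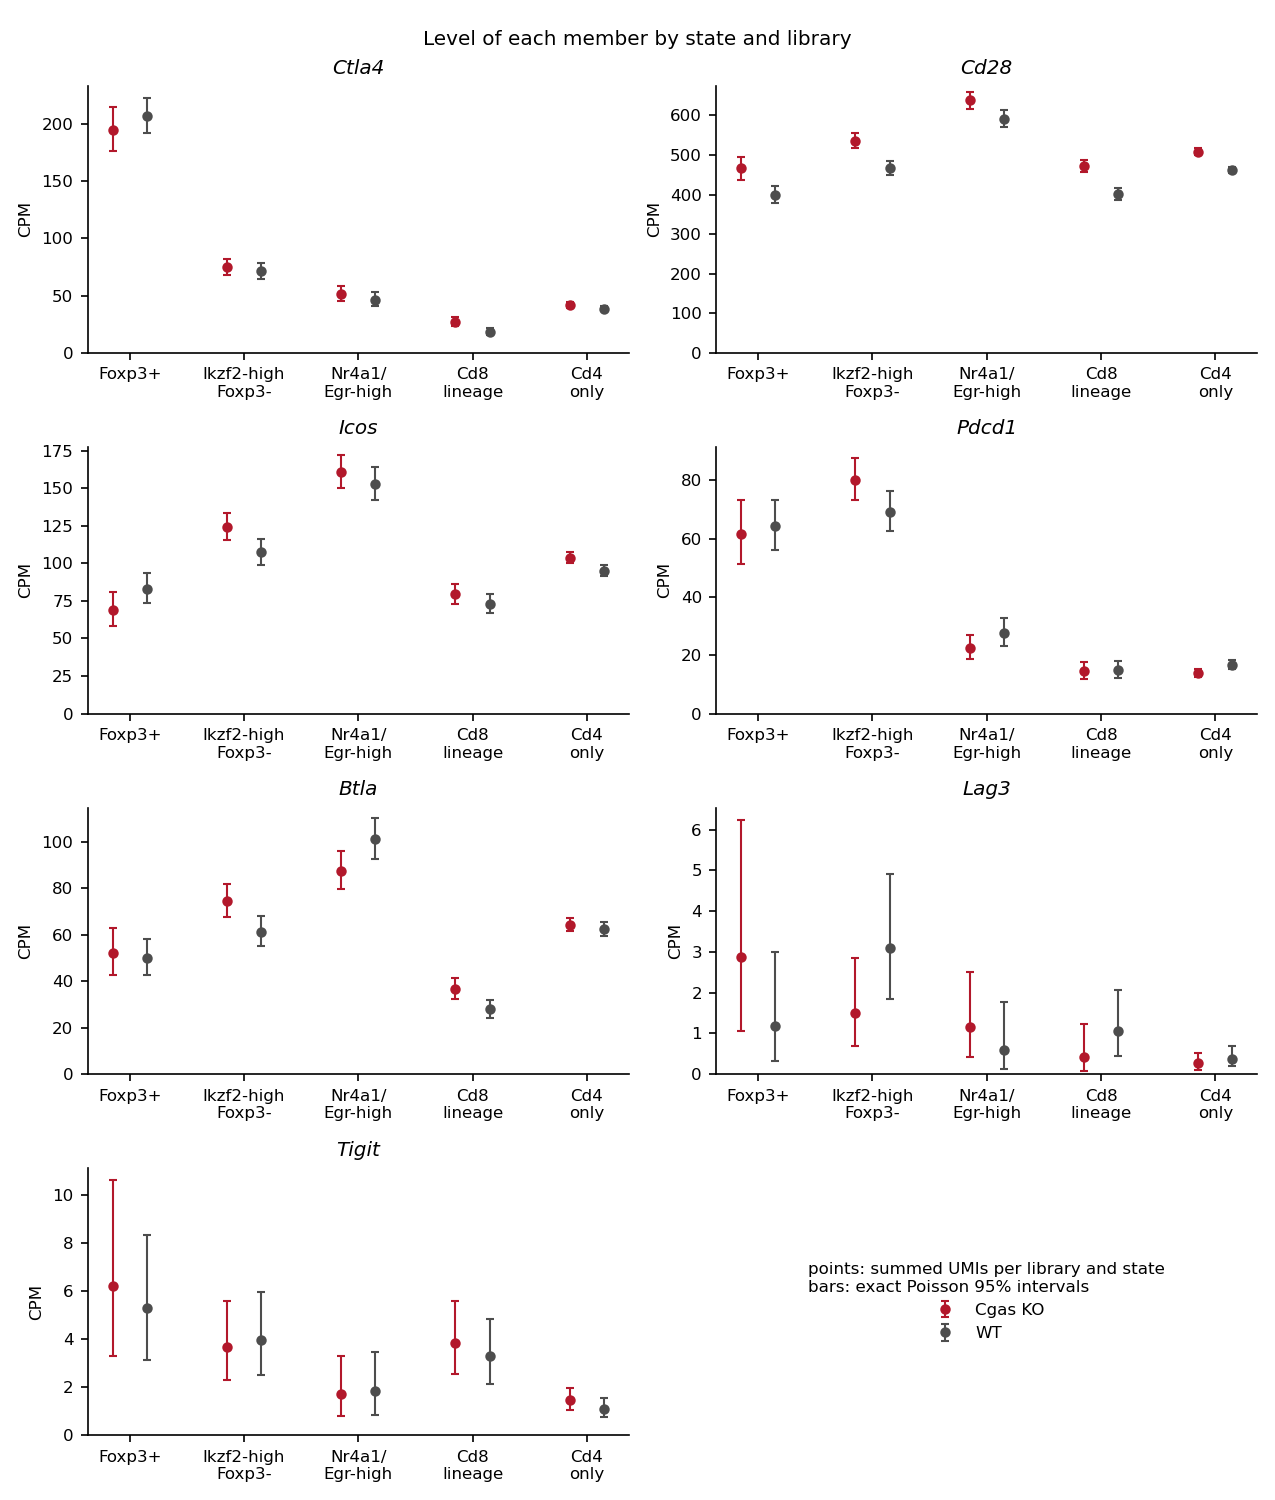
CPM of each member (y axes, starting at 0) in the 5 states, Cgas KO in red at the left of WT in grey; points are summed UMIs of 1 library and bars are exact Poisson 95% intervals. Ctla4 stood at 195 CPM in Cgas KO and 207 CPM in WT Foxp3+ barcodes, above every other state, while Cd28, Icos and Btla peaked in Nr4a1/Egr-high barcodes.

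Ctla4, whose product restrains CD28 signalling and which Treg cells express constitutively, stood at 195 CPM in Cgas KO (408 UMIs, 176 to 215) and 207 CPM in WT Foxp3+ barcodes (705 UMIs, 192 to 223). Cd4 only barcodes had 41.7 and 38.6 CPM, so the Foxp3+ level was 4.68 times that of Cd4 only barcodes in Cgas KO (4.17 to 5.23) and 5.36 times in WT (4.87 to 5.89). Ikzf2-high Foxp3- barcodes followed with 74.5 and 71.3 CPM, and Cd8 lineage barcodes came last with 27.1 and 18.5 CPM; the WT Nr4a1/Egr-high and Cd4 only intervals overlapped, and no other neighbours in this order did. After each barcode was thinned to 2000 UMIs, 32.0% of Cgas KO and 30.2% of WT Foxp3+ barcodes held a Ctla4 UMI, against 7.43% and 6.97% of Cd4 only barcodes (unthinned 49.5% and 53.1%, against 14.3% and 13.6%). With at least 2 Foxp3 UMIs required, and both libraries summed, the ratio over Cd4 only barcodes was 7.08, against 5.04 with at least 1.

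Within the Foxp3+ barcodes Ctla4 was higher where Il2ra, the gene for the IL-2 receptor chain CD25, had a UMI: 292 CPM in 126 Cgas KO barcodes and 306 CPM in 192 WT barcodes with Il2ra, against 137 and 142 CPM in those without. It also differed by Ikzf2, with 254 and 248 CPM at 4 or more Ikzf2 UMIs, against 139 and 171 CPM below. Outside the Foxp3+ barcodes, Ctla4 was higher in Cd4 only barcodes with a UMI of S1pr1, the receptor that guides thymic exit, at 56.9 CPM in Cgas KO and 54.5 CPM in WT, against 31.5 and 28.0 CPM without it. The intervals of these pairs did not overlap in either library. Most Ctla4 UMIs lay outside the Foxp3+ barcodes: Cd4 only barcodes contributed 1241 of its 3680 UMIs in Cgas KO and 1106 of its 3591 in WT.

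Pdcd1 encodes PD-1, which is induced by TCR signalling. It stood at 80.2 CPM in Cgas KO and 69.2 CPM in WT Ikzf2-high Foxp3- barcodes, at 61.6 and 64.3 CPM in Foxp3+ barcodes, and at 14.0 and 16.7 CPM in Cd4 only barcodes. The Ikzf2-high level was 5.73 times that of Cd4 only barcodes in Cgas KO (5.02 to 6.55) and 4.14 times in WT (3.62 to 4.74), and the Foxp3+ level 4.40 and 3.84 times. Ikzf2-high and Foxp3+ intervals overlapped in WT and just missed each other in Cgas KO, whereas both states lay above the other 3 in both libraries. Of the 6 members with 100 or more UMIs in Ikzf2-high over Cd4 only barcodes, Pdcd1 and Tigit were past 2-fold higher, against 2.69% of all genes, and none was past 2-fold lower, against 0.838%. Thinned shares with a Pdcd1 UMI were 10.96% and 10.92% of Ikzf2-high barcodes, against 2.36% and 2.99% of Cd4 only barcodes (unthinned 20.6% and 22.5%, against 6.43% and 8.19%).

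Pdcd1 was higher with each further step of Ikzf2 UMIs in Foxp3- barcodes with at most 1 Cd8a or Cd8b1 UMI, although the intervals at 0 and 1 Ikzf2 UMI overlapped, as did those at 2 or 3 and at 4 to 7 in WT. Its level was 12.9 CPM in Cgas KO and 15.4 CPM in WT barcodes with no Ikzf2 UMI, 15.7 and 16.5 CPM with 1, 37.3 and 40.0 CPM with 2 or 3, 63.6 and 56.5 CPM with 4 to 7, and 91.6 and 77.3 CPM with 8 or more. The same split was present inside the Foxp3+ barcodes, with 109 CPM in Cgas KO and 95.9 CPM in WT at 4 or more Ikzf2 UMIs, against 16.7 and 36.4 CPM below. It was present in Cd8 lineage barcodes too, with 35.7 and 40.6 CPM at 4 or more Ikzf2 UMIs, against 8.68 and 9.89 CPM below. Ctla4 followed Ikzf2 less far, with 41.9 CPM in Cgas KO and 37.5 CPM in WT barcodes with no Ikzf2 UMI. It had 48.1 and 50.6 CPM with 1 and 70.0 and 85.2 CPM with 2 or 3. From there it rose little or fell, with 76.0 and 83.2 CPM at 4 to 7 and 73.6 and 63.7 CPM at 8 or more. Median depth per bin ran from 4442 to 5320 UMIs in Cgas KO and from 4873 to 5793 UMIs in WT, deepest in the top bin.

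**Figure D2:**
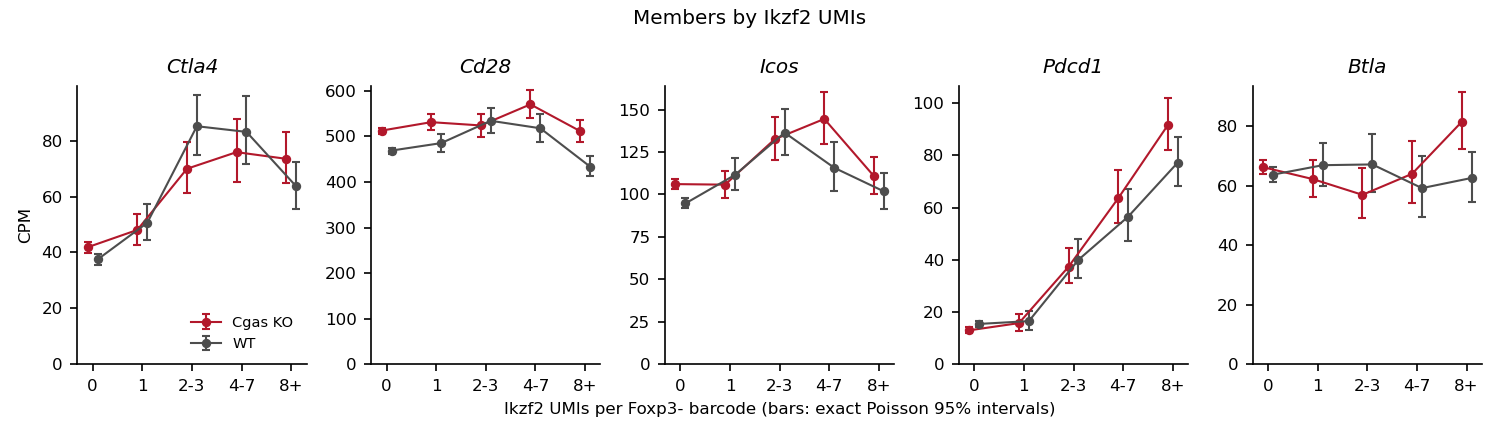
CPM of 5 members (y axes) by the number of Ikzf2 UMIs per Foxp3- barcode (x axis), Cgas KO in red and WT in grey, with exact Poisson 95% intervals. Pdcd1 runs from 12.9 CPM in Cgas KO and 15.4 CPM in WT without Ikzf2 UMIs to 91.6 and 77.3 CPM at 8 or more.

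Tigit, whose product competes with the activating receptor CD226 for CD155, had 152 UMIs in Cgas KO and 151 in WT in all. It stood at 6.21 CPM in Cgas KO and 5.28 CPM in WT Foxp3+ barcodes (13 and 18 UMIs), 4.30 and 4.88 times the Cd4 only level of 1.44 and 1.08 CPM. Ikzf2-high barcodes had 3.68 and 3.97 CPM, and Cd8 lineage barcodes had 3.83 and 3.28 CPM. In Cd8 lineage over Cd4 only barcodes Tigit was the 1 of 6 members past 2-fold higher, at 2.66 and 3.03 times, against 2.21% of all genes; none was past 2-fold lower, against 2.07%. Neighbouring states in the order of Tigit levels all overlapped in their intervals, while the intervals of Foxp3+, Ikzf2-high and Cd8 lineage barcodes each lay above that of Cd4 only barcodes in both libraries.

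Lag3, which encodes an MHC class II receptor that restrains CD4 T cells, had 52 UMIs in Cgas KO and 72 in WT. Its 5 state levels ran from 0.269 to 2.86 CPM in Cgas KO and from 0.384 to 3.11 CPM in WT, with 3 to 18 UMIs in a state and overlapping neighbours. The highest levels lay outside the 5 states, in barcodes with Rag1, Cd4 and Cd8 UMIs, a combination of double-positive thymocytes, at 5.11 CPM in Cgas KO and 5.04 CPM in WT (10 and 12 UMIs). These intervals, 2.45 to 9.39 CPM and 2.60 to 8.80 CPM, overlapped those of the highest of the 5 states in each library, Foxp3+ barcodes in Cgas KO (1.05 to 6.24 CPM) and Ikzf2-high barcodes in WT (1.84 to 4.91 CPM). In Cd4 only barcodes Lag3 stood at 0.269 and 0.384 CPM (8 and 11 UMIs), the lowest of the 5 states in both libraries.

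Cd28, the main costimulatory receptor, stood at 638 CPM in Cgas KO and 592 CPM in WT Nr4a1/Egr-high barcodes, 1.26 and 1.28 times the Cd4 only level of 508 and 462 CPM. It was lowest in Foxp3+ and Cd8 lineage barcodes, whose intervals overlapped, with 466 and 399 CPM in Foxp3+ barcodes (0.917 and 0.863 times Cd4 only). Cd28 RNA was present throughout: 55.0% and 51.9% of Foxp3+ barcodes held a UMI after thinning, against 60.5% and 55.9% of Cd4 only barcodes (unthinned 80.95% and 79.96%, against 84.3% and 84.5%). The summed ratio over Cd4 only was 0.765 with at least 2 Foxp3 UMIs and 0.874 with at least 1.

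Icos, the inducible relative of Cd28, stood at 161 CPM in Cgas KO and 153 CPM in WT Nr4a1/Egr-high barcodes, 1.55 and 1.61 times the Cd4 only level of 104 and 95.1 CPM. Foxp3+ barcodes had 68.8 CPM in Cgas KO and 83.0 CPM in WT, 0.664 times the Cd4 only level in Cgas KO (0.558 to 0.785) and 0.873 times in WT (0.770 to 0.987). Cd8 lineage barcodes had 79.7 and 73.1 CPM, and their intervals overlapped those of Foxp3+ barcodes.

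Btla, whose product binds HVEM, stood at 87.5 CPM in Cgas KO and 101 CPM in WT Nr4a1/Egr-high barcodes, 1.36 and 1.62 times the Cd4 only level of 64.3 and 62.4 CPM. Foxp3+ barcodes had 52.0 and 49.9 CPM, 0.809 and 0.799 times Cd4 only. Cd8 lineage barcodes were lowest with 36.8 and 27.9 CPM, 0.572 (0.5004 to 0.651) and 0.448 times Cd4 only. Ikzf2-high barcodes that were also high in Nr4a1/Egr had 134 CPM of Btla in Cgas KO and 105 CPM in WT, against 61.6 and 52.2 CPM in the other Ikzf2-high barcodes. None of the 5 members with 100 or more UMIs in Nr4a1/Egr-high over Cd4 only barcodes was past 2-fold, against 0.709% of all genes higher and 1.35% lower; their median log2 ratio was 0.57, beside -0.001 for all genes.

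Quartiles of the Nr4a1/Egr sum in Foxp3- barcodes with Cd4 and no Cd8a or Cd8b1 UMI were read for the same members. Icos stood at 83.9 CPM in Cgas KO and 82.2 CPM in WT in the lowest quartile and at 147 and 137 CPM in the highest. Cd28 stood at 485 and 428 CPM in the lowest and at 616 and 570 CPM in the highest. Btla stood at 61.2 and 58.9 CPM in the lowest and at 79.8 and 89.1 CPM in the highest. Pdcd1 was also higher in the highest quartile, with 16.1, 21.3, 18.1 and 27.9 CPM from the lowest to the highest in Cgas KO and 17.6, 26.5, 19.9 and 27.8 CPM in WT. Ctla4 had no such order, with 45.8 and 42.4 CPM in the lowest quartile and 49.7 and 43.1 CPM in the highest. The quartiles are uneven because many barcodes had no UMI of these genes: the second held 607 Cgas KO and 653 WT barcodes and was the deepest, with medians of 6775 and 6799 UMIs.

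**Figure D3:**
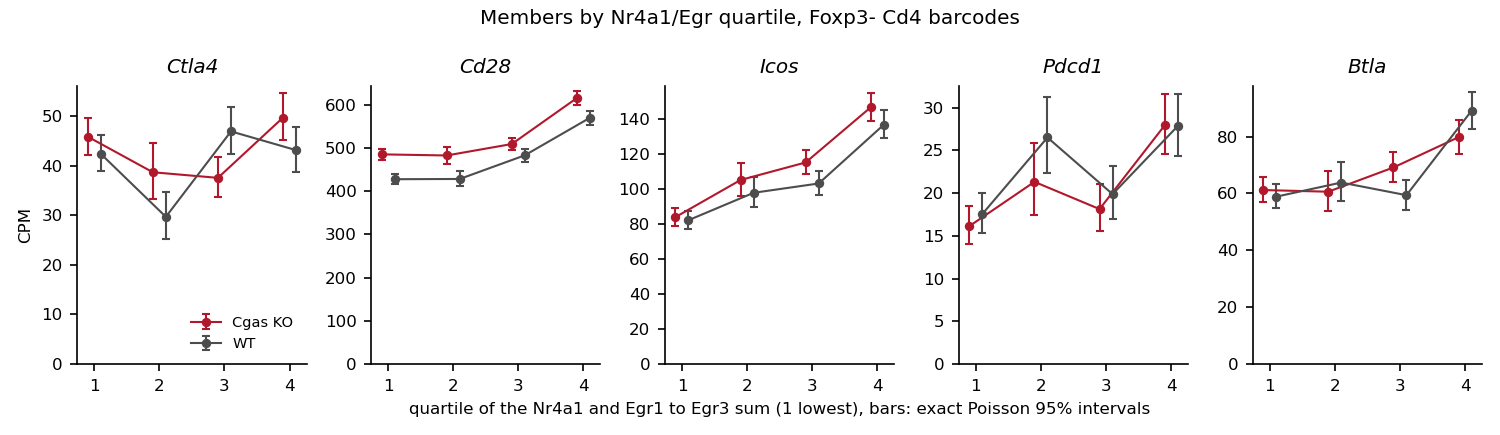
CPM of 5 members (y axes) by quartile of the summed Nr4a1, Egr1, Egr2 and Egr3 level in Foxp3- barcodes with Cd4 and no Cd8 UMIs (x axis, 1 lowest), Cgas KO in red and WT in grey, with exact Poisson 95% intervals. Icos runs from 83.9 CPM in Cgas KO and 82.2 CPM in WT to 147 and 137 CPM; Ctla4 shows no order.

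Across the 10 sums of state and library, log2 levels of Cd28 and Icos had a Pearson r of 0.88, Icos and Btla of 0.87, Cd28 and Btla of 0.82, and Ctla4 and Pdcd1 of 0.81. These are descriptions over 10 points that share 2 libraries. By the same measure, among 8995 genes, the nearest to Ctla4 were Gimap1 (0.99), Neurl3 (0.98) and Heca (0.98). The nearest to Pdcd1 were Pla2g4f, Cd200 and Nrp2 (0.98 to 0.99), of which Nrp2 stood at 33.4 CPM in Cgas KO and 24.4 CPM in WT Foxp3+ barcodes, against 1.34 and 1.78 CPM in Cd4 only barcodes. The nearest to Btla were Cd40lg (0.97), which encodes the helper T cell ligand of CD40, Unc119b (0.97) and Sfmbt2 (0.96). Those nearest to Cd28 were Arl5b, Rab10 and Dgkd (0.95 to 0.97), and to Icos were Ptk2b, Slc3a2 and Rnf19a (0.96 to 0.98). For Lag3 (Alkbh6, Slc4a7 and Tnip1, 0.91 to 0.92) and Tigit (Mpp1, Kif13b and Zmat5, 0.96 to 0.97) the low counts behind each sum limit the measure.

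Any of the 5 inhibitory members (Ctla4, Pdcd1, Btla, Lag3 and Tigit) was detected, after thinning, in 43.4% of Cgas KO and 42.8% of WT Foxp3+ barcodes. The share was 30.2% and 29.2% in Ikzf2-high, 24.5% and 25.9% in Nr4a1/Egr-high, 14.0% and 10.5% in Cd8 lineage and 20.3% and 19.8% in Cd4 only barcodes. At least 2 of them were detected together in 6.61% and 5.45% of Foxp3+ barcodes (4.33 to 9.61% and 3.65 to 7.78%), against 1.25% and 1.43% of Cd4 only barcodes. These joint shares depend on the share of each member, and an excess over that was not tested. Among Foxp3+ barcodes with a Ctla4 UMI, 9.92% in Cgas KO and 9.68% in WT held a Pdcd1 UMI. Of those without Ctla4, 7.39% and 8.91% did. For Btla the shares were 8.26% and 7.74% with Ctla4, against 7.39% and 8.91% without. The intervals overlapped in each pair.

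RNA outside cells can add to these levels and shares. Barcodes with at least 20 and fewer than 200 UMIs, which mostly hold free RNA, carried Ctla4 at 67.6 CPM in Cgas KO and 71.1 CPM in WT, Pdcd1 at 30.2 and 30.4 CPM, Btla at 104 and 82.2 CPM, Icos at 121 and 114 CPM and Cd28 at 537 and 452 CPM. The Foxp3+ level of Ctla4 and the Ikzf2-high level of Pdcd1 were above these, whereas the Cd4 only levels of these 5 members were below them, apart from Cd28 in WT. Tigit in the barcodes with fewer than 200 UMIs was at 3.74 CPM in Cgas KO and 2.31 CPM in WT (30 and 17 UMIs). In Cgas KO its Ikzf2-high and Cd8 lineage levels, 3.68 and 3.83 CPM, were close to this, and its Foxp3+ interval (3.30 to 10.6 CPM) included it. In WT its levels in these states lay above it, with overlapping intervals. A class that should lack the members could not be formed: barcodes with antigen presentation genes and no Cd3 UMI numbered 2 in Cgas KO and 1 in WT. Barcodes with Rag1, Cd4 and Cd8 UMIs, whose median depths were 4151 and 3405.5 UMIs and which may transcribe some members, held a Ctla4 UMI in 5.80% and 4.90%, a Pdcd1 UMI in 1.45% and 2.21% and a Btla UMI in 4.64% and 3.68% after thinning. Ctla4 shares in Cd8 lineage barcodes, 4.98% and 3.09%, were no higher than in these Rag1 barcodes.

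Between genotypes the members' levels over all kept barcodes lay close to each other. None of the 7 members was past 1.2-fold higher in Cgas KO, against 6.07% of 13266 genes with at least 100 UMIs, and 1, Lag3, was past 1.2-fold lower, against 5.83%. Lag3 rests on the 52 and 72 UMIs given above (0.688 CPM in Cgas KO and 0.960 CPM in WT, ratio 0.716, 0.492 to 1.04), an interval that includes 1. Ctla4 stood at 48.7 CPM in Cgas KO and 47.9 CPM in WT (ratio 1.02, 0.971 to 1.06), and Tigit at 2.01 CPM in both (ratio 0.999, 0.792 to 1.26). Pdcd1 stood at 21.1 and 22.8 CPM (ratio 0.925, 0.864 to 0.991). Btla stood at 60.6 and 57.2 CPM (ratio 1.06, 1.02 to 1.105). The median log2 ratio of the members was 0.02, beside 0.002 for all genes.

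**Figure D4:**
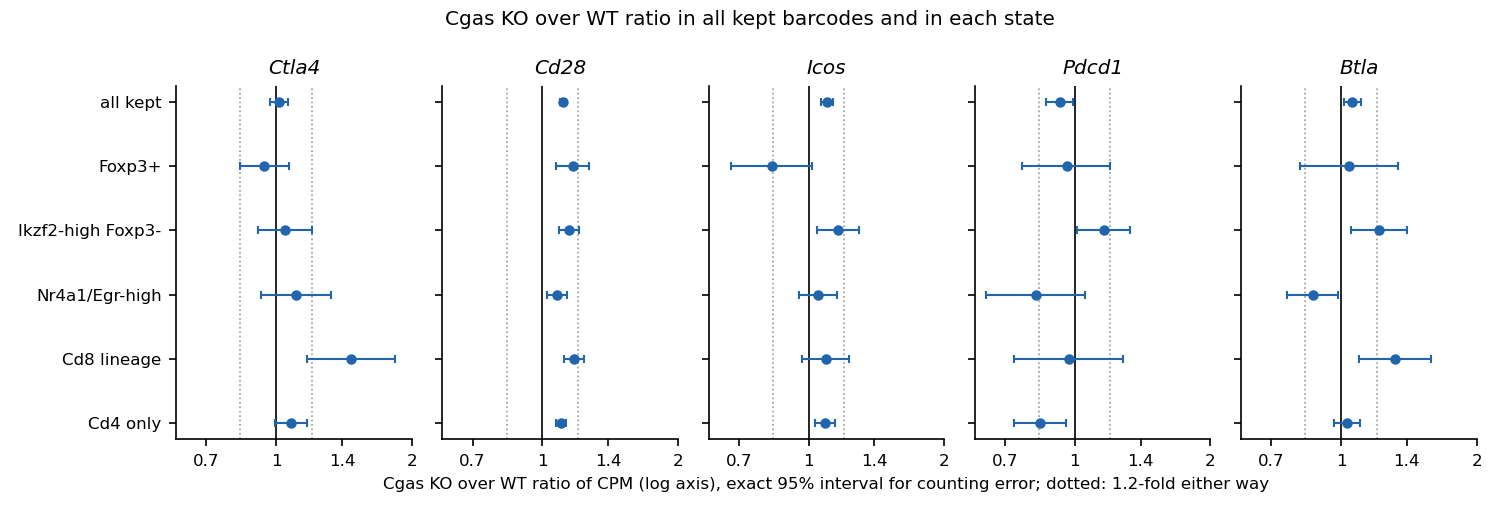
Cgas KO over WT ratio of CPM (log x axes) for the 5 members with enough UMIs in every state, in all kept barcodes and in each state (rows), with exact 95% intervals for counting error and dotted lines at 1.2-fold either way. Cd28 lies above 1 in all 5 states at 1.08 to 1.18, and Pdcd1 and Btla lie on both sides of 1.

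Cd28 was higher in Cgas KO by CPM in every state. It stood at 509 CPM in Cgas KO and 458 CPM in WT over all kept barcodes (ratio 1.11, 1.095 to 1.13). The ratio was 1.17 in Foxp3+, 1.15 in Ikzf2-high, 1.08 in Nr4a1/Egr-high, 1.18 in Cd8 lineage and 1.10 in Cd4 only barcodes, and each interval lay above 1. By thinned shares the offset was smaller: the ratio of shares with a Cd28 UMI was 1.06 in all kept barcodes (1.03 to 1.096) and 1.08 in Cd4 only barcodes (1.03 to 1.14). It was 1.06 in Foxp3+ (0.879 to 1.27), 0.995 in Ikzf2-high (0.885 to 1.12), 1.02 in Nr4a1/Egr-high (0.912 to 1.13) and 1.09 in Cd8 lineage barcodes (0.985 to 1.201). These intervals treat the numbers of barcodes with a UMI as Poisson counts. At shares as high as those of Cd28 this makes them too wide, so an interval that includes 1 does not show a lack of offset. Barcodes with at least 20 and fewer than 200 UMIs showed the same direction for Cd28, at 537 CPM in Cgas KO and 452 CPM in WT, and the part of free RNA in the offset was not tested. Icos, at 103 and 93.9 CPM, had a ratio of 1.10 (1.06 to 1.13) over all kept barcodes, and was on the same side of 1 in 4 of the 5 states.

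In Foxp3+ barcodes none of the 5 members with 100 or more UMIs was past 1.2-fold higher in Cgas KO, against 9.76% of 6837 genes, and 1, Icos, was past it lower, against 10.9%. Icos stood at 68.8 CPM in Cgas KO (144 UMIs) and 83.0 CPM in WT (283 UMIs), a ratio of 0.828 (0.673 to 1.02) whose interval includes 1; thinned shares were 12.7% and 15.6% and their intervals overlapped. Ctla4 had a ratio of 0.942 (0.832 to 1.07) there. Of the 705 WT UMIs of Ctla4, 26 came from each of 2 barcodes, while no Cgas KO barcode held more than 9, and without these 2 barcodes the ratio was 1.01 (0.891 to 1.15). Pdcd1 had a ratio of 0.959 (0.765 to 1.197) and Btla of 1.04 in the same barcodes. Dendritic cell and macrophage markers summed to 142 CPM in Cgas KO and 308 CPM in WT Foxp3+ barcodes, with Itgax, Siglech, Fcer1g, Tyrobp, Csf1r and Adgre1 of the 12 at 0 in Cgas KO and Siglech and Csf1r at 0 in WT. All 128 H2-Aa UMIs of the WT Foxp3+ barcodes lay in 1 barcode of 21835 UMIs, which held 3 Ctla4 UMIs, and the Ctla4 ratio without it was 0.940.

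In Ikzf2-high Foxp3- barcodes Btla was the 1 of 5 members past 1.2-fold higher in Cgas KO, against 6.23% of genes, at 74.4 CPM in Cgas KO and 61.3 CPM in WT (ratio 1.21, 1.05 to 1.399); none was past it lower, against 8.59%. Ratios of the other members there were 1.16 for Pdcd1 (1.01 to 1.33), 1.16 for Icos, 1.15 for Cd28 and 1.05 for Ctla4, and the thinned shares with a Pdcd1 or Btla UMI had overlapping intervals between the libraries. Of the 479 Cgas KO UMIs of Pdcd1 there, 22 came from 1 barcode, and without it the ratio was 1.11 (0.971 to 1.28); without the Cgas KO barcode with the most Btla UMIs, 10 of 444, the Btla ratio was 1.19 (1.03 to 1.37). In Nr4a1/Egr-high barcodes none of 5 was past 1.2-fold higher, against 8.62%, and Pdcd1 was past it lower, against 8.36%, at 22.6 CPM in Cgas KO and 27.6 CPM in WT (ratio 0.819, 0.635 to 1.05). Btla had a ratio of 0.865 there (0.761 to 0.984), and without the 1 WT barcode that held 23 of its 502 UMIs the ratio was 0.906 (0.795 to 1.03). In Cd4 only barcodes none of 5 was past 1.2-fold in either direction, against 5.5% higher and 5.05% lower; the Pdcd1 ratio was 0.837 (0.732 to 0.957). In Cd8 lineage barcodes Ctla4 and Btla were past it higher, 2 of 5 against 8.51%, and none was lower, against 7.45%. Btla stood at 36.8 CPM in Cgas KO and 27.9 CPM in WT Cd8 lineage barcodes (ratio 1.32, 1.09 to 1.59), with thinned shares of 6.85% and 4.61% beside the 4.64% and 3.68% of the Rag1 barcodes, and Ctla4 at 27.1 and 18.5 CPM (ratio 1.47, 1.17 to 1.84), at the thinned shares given above, which were no higher than those of the Rag1 barcodes. Within this state Ctla4 stood at 26.5 CPM in Cgas KO and 39.0 CPM in WT with 4 or more Ikzf2 UMIs. With fewer it stood at 27.3 and 14.4 CPM. The barcodes described above that mostly hold free RNA had Btla at 104 CPM in Cgas KO and 82.2 CPM in WT. They had Ctla4 at 67.6 and 71.1 CPM, the opposite direction to its Cd8 lineage ratio. The part of free RNA in the Btla and Ctla4 ratios was not tested. Cd8 lineage barcodes were shallower in Cgas KO, with medians of 4231 UMIs in Cgas KO and 4750.5 UMIs in WT, and Ikzf2, which marks higher Pdcd1 in this state, was detected in 44.4% and 38.2% of them.

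Genes that work with the members were read from lists drawn up with earlier results of these data known. Of 21 proximal signalling partners none was past 1.2-fold between genotypes over all kept barcodes, and of 8 measured genes for CTLA-4 trafficking none was, against the 6.07% of all genes higher and 5.83% lower given above. Lrba, which protects CTLA-4 from lysosomal degradation, stood at 89.4 CPM in Cgas KO and 89.3 CPM in WT. Of 9 measured ligand genes 4 were past 1.2-fold lower in Cgas KO and none higher. These were Cd86 (5.74 CPM in Cgas KO and 13.2 CPM in WT, ratio 0.435, 0.388 to 0.488), H2-Aa (ratio 0.670, 227 and 336 UMIs), Nectin3 (0.763, 0.517 to 1.12) and Lgals3 (0.777). Of the H2-Aa UMIs 128 lay in the 1 WT barcode named above, and without it H2-Aa had 227 UMIs in Cgas KO and 208 in WT, a ratio of 1.08 (0.893 to 1.31), so its place among the lower genes rests on that barcode. Of 12 measured related receptors, Lair1 was past it higher (1.21), and Cd244a (1.89 CPM in Cgas KO and 4.28 CPM in WT, ratio 0.442) and Entpd1 (0.754, 0.520 to 1.09) were past it lower. Of 21 transcriptional regulators Id3 was past it higher (221 CPM in Cgas KO and 170 CPM in WT, ratio 1.30) and Id2 (0.751) and Maf (0.779) were past it lower. Median log2 ratios were -0.05 for signalling partners, -0.02 for trafficking, -0.25 for ligands, -0.13 for related receptors and 0.05 for regulators, beside 0.002 for all genes.

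Within the Foxp3+ barcodes 1 ligand (Cd274, the gene for PD-L1, ratio 1.30, 0.954 to 1.76) was past 1.2-fold higher and 1 lower (H2-Aa, the UMIs of 1 WT barcode) of 3 measured, against the 9.76% of all genes higher and 10.9% lower in this state. Of 7 genes listed as related receptors Cd200 was higher (94.1 CPM in Cgas KO and 70.1 CPM in WT, ratio 1.34, 1.105 to 1.63). Cd96 (ratio 0.763, 0.656 to 0.885) and Cd200r1 (0.673, 0.443 to 1.004) were lower. Of 17 regulators 4 were higher (Batf at 1.53, Nr4a3 at 1.51, Id3 at 1.29 and Nr4a2 at 1.204, with an interval of 0.9504 to 1.52) and Id2 was lower (0.622). Of 20 signalling partners Akt1 was higher (1.25, 0.970 to 1.62) and Ptpn11 (0.734, 0.532 to 1.003) and Tbk1 (0.809, 0.621 to 1.05) were lower, each with an interval that includes 1, and of 8 trafficking genes none was past the fold. Median log2 ratios there were -0.15 for ligands, -0.11 for related receptors, 0.10 for regulators, 0.03 for signalling partners and -0.03 for trafficking, beside 0.002 for all genes. In Foxp3+ over Cd4 only barcodes, past 2-fold in both libraries, Cd160 and Cd200 were higher and Lair1 lower of 11 related receptors, Tox2 was lower of 21 regulators, and none of 7 ligands, 21 signalling partners and 8 trafficking genes was past the fold, against the 2.44% of all genes higher and 0.825% lower given above; the medians were 0.18, 0.02, 0.06, -0.11 and -0.03, beside -0.06 for all genes.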

How the data were processed

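The deposited matrices hold unfiltered UMI counts per gene and barcode. Their headers name Cell Ranger 8.0.1, while the submitters' notes on processing list Cell Ranger 7.0, Seurat 5.1.0 and the build mm10; which is right is unresolved. Expression libraries used a 3' kit and TCR libraries a TCR kit, per the labels' protocols. The deposited TCR tables give UMI counts per productive contig and were used only to count beta chains per barcode. The matrices held 87310091 UMIs in Cgas KO and 84763106 in WT.

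Counts of kept barcodes were summed per library and state and divided by their total. Intervals are exact: Poisson for CPM, conditional binomial for ratios of CPM, Clopper-Pearson for shares after random thinning of each barcode to 2000 UMIs. Intervals for ratios of shares applied the conditional binomial to numbers of barcodes with a UMI, so they are not exact. All cover counting error only. States were assigned in the order Foxp3+ (at least 1 Foxp3 UMI), Cd8 lineage (no Cd4 UMI, at least 2 of Cd8a and Cd8b1), Ikzf2-high (at least 4 Ikzf2 UMIs, at most 1 of Cd8a and Cd8b1), Nr4a1/Egr-high (90th percentile, 15.0 UMIs per 10000) and Cd4 only (at least 1 Cd4 UMI, none of Cd8a and Cd8b1). Doublets were not removed. A gene counted as past the fold at 1.2 between genotypes, or at 2 in both libraries between states, given at least 100 UMIs. Likeness was Pearson's r of log2(CPM + 1) among genes with at least 500 UMIs; the 3 nearest are named. The rule for lists named up to 4 genes farthest from a ratio of 1. Lrba, Nr4a2, Hspa1a and Hspa1b, and the genes of the closing observations, fall outside it and were named after their values were seen. Members, states and lists were chosen with earlier results of these data known. The interval code was tested on simulated counts. TMM factors came from edgeR 4.0.16; other steps used Python 3.11.15, numpy 2.4.6, scipy 1.17.1 and pandas 2.3.3. Alternatives changed depth, filters, scaling, state cuts and doubtful barcodes.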

Additional observations from a re-analysis of the deposited data

Results flagged for a closer look

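Pdcd1 and Btla had Cgas KO over WT ratios of CPM with intervals on opposite sides of 1 in different states. The difference between states was not tested, since there is 1 library of each genotype. Pdcd1 was at a ratio of 1.16 in Ikzf2-high Foxp3- barcodes (80.2 CPM in Cgas KO, 69.2 CPM in WT, 1.01 to 1.33) and at 0.837 in Cd4 only barcodes (14.0 CPM in Cgas KO, 16.7 CPM in WT, 0.732 to 0.957). Thinned shares with a Pdcd1 UMI were 10.96% and 10.92% in the first and 2.36% and 2.99% in the second. Btla was at 1.21 in Ikzf2-high Foxp3- barcodes (1.05 to 1.399) and 1.32 in Cd8 lineage barcodes (1.09 to 1.59), and at 0.865 in Nr4a1/Egr-high barcodes (87.5 CPM in Cgas KO, 101 CPM in WT, 0.761 to 0.984). Every alternative run kept these 5 ratios of CPM on their side of 1, but 2 of the intervals reached 1 when 1 barcode was left out. Pdcd1 in Ikzf2-high barcodes was at 1.11 (0.971 to 1.28) without the Cgas KO barcode that held 22 of its UMIs. Btla in Nr4a1/Egr-high barcodes was at 0.906 (0.795 to 1.03) without the WT barcode that held 23. Ratios of thinned shares had intervals that included 1 for Pdcd1 in Ikzf2-high (1.003, 0.756 to 1.33) and Cd4 only barcodes (0.789, 0.618 to 1.0075). The same held for Btla in Ikzf2-high (1.07, 0.802 to 1.42) and Nr4a1/Egr-high barcodes (0.924, 0.731 to 1.17). For Btla in Cd8 lineage barcodes the interval lay above 1 (1.49, 1.08 to 2.06). By these shares neither gene had intervals on opposite sides of 1. Barcodes that mostly hold free RNA had Btla at 104 CPM in Cgas KO and 82.2 CPM in WT. This is the direction of Btla in Ikzf2-high and Cd8 lineage barcodes and opposite to that in Nr4a1/Egr-high barcodes. The part of free RNA in the Btla ratios was not tested.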

How the results depend on the processing

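No paired analysis was possible because each genotype has 1 expression library, and for the same reason no replicate could be left out. Of 957 values under 24 alternatives, 921 moved by less than their interval or, for counts of genes, within 1.5 times, and 36 moved further; the causes were not tested. No ratio past its fold with at least 100 UMIs changed side of 1, while 14 of the 70 ratios, each close to 1 or resting on fewer UMIs, reached or crossed 1 under at least 1 alternative: 7 of Lag3 or Tigit, Ctla4 in all kept, Foxp3+ and Ikzf2-high barcodes, Pdcd1 in Foxp3+ and Cd8 lineage barcodes and Btla in Foxp3+ barcodes between genotypes, and Cd28 in Ikzf2-high over Cd4 only barcodes. Ratios of a state over Cd4 only barcodes below sum both libraries. Requiring 2 Foxp3 UMIs gave Foxp3+ ratios of 7.081 for Ctla4, 0.765 for Cd28 and 4.865 for Pdcd1. Requiring 8 Ikzf2 UMIs gave Ikzf2-high ratios of 1.666 for Ctla4, 0.9698 for Cd28 and 1.059 for Icos, and requiring 2 gave 1.253 for Icos and 4.373 for Pdcd1. Requiring 4 Cd8a and Cd8b1 UMIs gave Cd8 lineage ratios of 0.4981 for Ctla4 and 0.8606 for Cd28. The 80th percentile of Nr4a1/Egr gave 1.478 for Icos and 1.285 for Btla, and the 95th 1.635 for Btla.

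Thinning to 2000 UMIs gave Ikzf2-high ratios of 1.087 for Cd28, 1.079 for Icos and 3.154 for Lag3, Cd8 lineage ratios of 0.9548 for Cd28, 0.7983 for Pdcd1 and 4.54 for Tigit, and a Foxp3+ ratio of 0.694 for Btla. It gave Cgas KO over WT ratios of 0.8378 for Pdcd1 in all kept barcodes and, in Ikzf2-high barcodes, 0.8952 for Ctla4 and 1.026 for Cd28. Mean per-barcode CPM gave Cd28 ratios of 1.07 in Ikzf2-high and 0.9288 in Cd8 lineage barcodes, and leaving out mitochondrial and ribosomal protein genes gave 0.8631 in Cd8 lineage barcodes. Without barcodes with 2 or more beta chains the Foxp3+ ratio of Pdcd1 was 4.681. Weighting states equally gave Cgas KO over WT ratios of 1.115 for Ctla4, 1.133 for Cd28 and 1.037 for Icos. With a minimum of 1 UMI, 4629 genes were past 1.2-fold higher and 4728 lower in all kept barcodes (805 and 773 at 100 UMIs), and 4395 and 5234 in Foxp3+ barcodes; a minimum of 50 gave 1098 and 1180 there, against 667 and 746 at 100 UMIs.

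Cd28 stayed above 1 in Cgas KO over WT under every alternative in all kept barcodes and each of the 5 states. Icos in Foxp3+ barcodes ran from 0.7162 to 0.9007, and Ctla4 there from 0.8819 to 1.018. The removals of 2 WT barcodes rich in Ctla4, of 1 with antigen presentation genes and of the barcode with the most UMIs of a member were chosen after seeing the data. Lag3 and Tigit had 3 to 43 UMIs in a state, and their genotype intervals included 1 in each of the 5 states.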

Other observations

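Cd86, the shared ligand gene of CD28 and CTLA-4, was lower in Cgas KO in all 5 states. It stood at 7.16 CPM in Cgas KO and 17.3 CPM in WT Foxp3+ barcodes, at 8.88 and 16.1 CPM in Ikzf2-high, at 4.02 and 11.3 CPM in Nr4a1/Egr-high, at 1.85 and 4.20 CPM in Cd8 lineage and at 6.65 and 15.6 CPM in Cd4 only barcodes. The ratios ran from 0.356 to 0.553, with intervals below 1 in each state. Cd86 was not read in the barcodes that mostly hold free RNA. Which cells its UMIs came from, and the part of free RNA in its ratios, were therefore not tested. Dendritic cell and macrophage markers summed to 142 CPM in Cgas KO and 308 CPM in WT Foxp3+ barcodes, to 223 and 244 CPM in Ikzf2-high, to 175 and 188 CPM in Nr4a1/Egr-high, to 187 and 264 CPM in Cd8 lineage and to 139 and 141 CPM in Cd4 only barcodes. Of the 7 with at least 100 UMIs over all kept barcodes, 5 were past 1.2-fold lower in Cgas KO, against 5.83% of all genes. H2-Aa, whose lower level rests on the WT barcode of antigen presentation genes, was among them. The count was not repeated without that barcode, and the part of these markers in the Cd86 ratios was not tested. In Cd4 only barcodes 10 of the 12 markers had UMIs in both libraries. The others, Itgax and Siglech, were at 0, and Siglech was at 0 over all kept barcodes too. H2-Aa stood at 1.88 CPM in Cgas KO and 1.43 CPM in WT Cd4 only barcodes. The Cd86 ratio over all kept barcodes was 0.435 with and without the WT barcode of antigen presentation genes.

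Cd200 and Cd160, both read with the related receptors, were higher in Ikzf2-high than in Cd4 only barcodes, as was Pdcd1. Cd200 stood at 97.5 CPM in Cgas KO and 89.4 CPM in WT Ikzf2-high barcodes, against 25.8 and 26.2 CPM in Cd4 only barcodes. Cd160 stood at 16.4 and 15.5 CPM in Ikzf2-high barcodes and at 20.6 and 20.7 CPM in Cd8 lineage barcodes, against 1.01 and 1.26 CPM in Cd4 only barcodes. Id3, an inhibitor of E proteins, was higher in Cgas KO in all 5 states, with ratios of 1.16 to 1.52, and Id2 was lower in all 5, with ratios of 0.622 to 0.928 and an interval that included 1 in Ikzf2-high barcodes and in no other state.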
